A study of Mus musculus with 5 samples.

Results

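The genes described here lie in 2 windows of the mouse genome that hold families of C2H2 zinc finger genes, 1 on chromosome 13 and 1 on chromosome 4. A gene was a member if its start in the mm9 table lay between 65000000 and 68500000 on chromosome 13 or between 144500000 and 147500000 on chromosome 4, whatever its expression. This gave 77 of the 24016 genes, 42 on chromosome 13 and 35 on chromosome 4, and the zinc finger members among them, found by name or by a translated protein with at least 3 fingers, numbered 29 and 14. The other 13 and 21 members are neighbours of other kinds, with the pseudogene Znf41-ps on chromosome 4 among them. Of the members, 36 on chromosome 13 (27 zinc finger genes) and 28 on chromosome 4 (13 zinc finger genes) had enough reads to be tested. The nearest genes outside the windows were Cntnap3 and Mtrr on chromosome 13 and Dhrs3 and Mad2l2 on chromosome 4, none of them a zinc finger gene.

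RNA was sequenced from 5 mouse embryonic stem (ES) cell lines grown in 2i, a medium with inhibitors of MEK and GSK3. The lines were NOD1 and NOD5 of the NOD strain, which develops autoimmune diabetes, NZB, of a different strain prone to autoimmunity, v6.5, labelled 129SvJae6C57BL6 and derived from a cross of 129 and C57BL/6 mice, and B6, of the C57BL/6 strain. Each line gave 1 library, so only NOD has a pair, and a lone library stands for its strain in every comparison. The authors' command names a second B6 directory and none for v6.5, and it gives the NOD5 library a name that joins 5 and 6, so v6.5 below means the library labelled v6.5. Whether the NOD5 library holds 1 line or more is not known.

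Clustered zinc finger genes of this kind arose by repeated duplication and encode proteins with a KRAB domain and an array of C2H2 fingers, each finger reading a few bases of DNA. The KRAB domain recruits the corepressor TRIM28, which brings the histone methyltransferase SETDB1 and silences the bound DNA, in many cases a transposable element. In ES cells this pathway keeps many endogenous retroviruses silent, and such clusters are known to differ between mouse strains. Here a KRAB pattern was found in all 28 proteins translated on chromosome 13 and in all 14 on chromosome 4, and the proteins held 3 to 30 and 3 to 20 fingers. Among the members with a known role is Rsl1 on chromosome 13, which represses male-specific liver genes in mice.

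The 2 clusters differed in the sequence upstream of their genes. The RefSeq promoter table (GRCm38.p6) had an entry for 25 zinc finger members on chromosome 13 and 12 on chromosome 4, and the 250 bases before each start were searched on both strands. On chromosome 4, 9 of the 12 genes (9 of 15 starts) held ATTGGGCGG, in which a CCAAT box read on the other strand overlaps a GC box (GGGCGG). This joined element was upstream of 0.274% of the 27025 genes in the table, of 1.64% of the 305 Zfp genes elsewhere and of 0 of the 25 genes on chromosome 13. Single boxes were commoner, with GGGCGG upstream of 35.4% and CCAAT upstream of 37.5% of all genes in the table. On chromosome 13, 21 of the 25 genes held TACANNTCC, from the centre of the element bound by the transcription factor ZNF143, against 1 of the 12 on chromosome 4 (Zfp933), 14.8% of the Zfp genes elsewhere and 4.48% of all genes. The elements were picked after the sequences had been read, the genes are near copies of one another, and a match is not a bound site.

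The 150 bases before the start are given for genes whose promoters are alike and whose RNA levels across strains are not, with the joined element or TACANNTCC (read on the other strand) in capitals. Zfp600 (chr4:146156677-146156826, plus strand) had the same 150 bases as Rex2 (chr4:147021700-147021849, plus strand). The others are 2610305D13Rik, now named Zfp979 (chr4:147642509-147642658, minus strand), Gm13242, now Zfp980 (chr4:145670547-145670696, plus strand), Gm13152, now Zfp982 (chr4:147492267-147492416, plus strand), and Gm13247, now Zfp981 (chr4:146514770-146514919, plus strand). From chromosome 13 come Rsl1 (chr13:67173032-67173181, plus strand), Zfp456 (chr13:67375764-67375913, minus strand) and Zfp429 (chr13:67399768-67399917, minus strand), all in GRCm38.p6.
Zfp600: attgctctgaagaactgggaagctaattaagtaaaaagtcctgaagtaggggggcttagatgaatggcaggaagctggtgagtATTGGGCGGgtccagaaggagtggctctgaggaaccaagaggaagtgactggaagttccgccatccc
2610305D13Rik: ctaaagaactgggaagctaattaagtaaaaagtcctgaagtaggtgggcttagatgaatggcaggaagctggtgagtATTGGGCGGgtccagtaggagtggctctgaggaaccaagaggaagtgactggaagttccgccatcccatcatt
Gm13242: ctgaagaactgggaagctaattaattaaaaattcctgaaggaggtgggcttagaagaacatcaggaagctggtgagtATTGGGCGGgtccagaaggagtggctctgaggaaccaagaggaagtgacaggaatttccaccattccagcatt
Gm13152: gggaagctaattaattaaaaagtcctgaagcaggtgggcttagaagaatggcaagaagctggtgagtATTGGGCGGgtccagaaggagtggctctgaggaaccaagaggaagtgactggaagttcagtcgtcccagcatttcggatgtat
Gm13247: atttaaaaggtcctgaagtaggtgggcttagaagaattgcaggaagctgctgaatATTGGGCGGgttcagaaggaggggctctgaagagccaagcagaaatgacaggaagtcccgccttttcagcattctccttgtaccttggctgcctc
Rsl1: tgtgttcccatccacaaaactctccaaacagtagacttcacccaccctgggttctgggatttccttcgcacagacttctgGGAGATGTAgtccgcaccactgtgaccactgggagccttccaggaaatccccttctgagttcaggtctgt
Zfp456: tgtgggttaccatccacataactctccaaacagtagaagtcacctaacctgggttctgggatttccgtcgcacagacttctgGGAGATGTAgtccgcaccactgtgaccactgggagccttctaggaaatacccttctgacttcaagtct
Zfp429: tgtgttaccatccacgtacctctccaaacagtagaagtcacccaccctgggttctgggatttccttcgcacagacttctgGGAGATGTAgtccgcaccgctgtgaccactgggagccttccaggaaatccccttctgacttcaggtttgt

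Over the 250 bases, the percentage of identical columns in a global alignment was 99.2 for Zfp600 with Rex2, 94.1 for Zfp600 with 2610305D13Rik, 88.3 for Zfp600 with Gm13242 and 81.1 for Zfp600 with Gm13152. For a gene with several starts, the best-aligning start was used. Gm13247 was less alike, at 70.3% with Zfp600 and 77.2% with Gm13152, where the median of all chromosome 4 pairs was 70.2%. Rsl1 matched Zfp456 at 89.3% and Zfp429 at 87.9%. Among all pairs, 18 of 66 on chromosome 4 and 4 of 300 on chromosome 13 were over 80% identical. The transcripts were alike as well. Of all 50-base stretches of a transcript, the read length used, a median of 61.3% on chromosome 4 and 16.8% on chromosome 13 also occurred in the transcript of another gene, against 0.57% in 330 Zfp genes elsewhere. At least 50% of the stretches were shared in 8 of 14 and in 4 of 28 of these genes. Reads from shared stretches could be lost or placed on a copy, so levels of single members on chromosome 4 are uncertain. The same holds for the 4 such genes on chromosome 13, among them Zfp708 (100% shared) and Zfp456 (65.3%). Reads were aligned to mm9, a C57BL/6 genome, so less RNA in NOD or NZB cells and fewer reads that align cannot be told apart.

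Levels are given as normalised reads, the deposited value divided by the library's TMM factor, a scaling that allows for RNA composition. The libraries held 7713133 to 21387796 reads, and the ribosomal precursor Rn45s took 1.95% to 41.4% of them. All 10 ES cell markers were detected in every library, with Pou5f1 at 3471 to 10697 normalised reads, but their levels differed between lines. Tdgf1 had 153 normalised reads in NOD1 and 2032 in NOD5, 6020.0 in NZB, 6872 in v6.5 and 9287 in B6. Zfp42 had 2395 normalised reads in NOD1 and 10510 in NOD5, 3239 in NZB, 1782 in v6.5 and 494 in B6. In NOD against B6, the median log2 fold change of the 10 was -0.99. Of the 10, 7 had an unadjusted limma p under 0.05, beside 17.1% of all genes tested, and 0 passed after adjustment, beside 0.462%. With edgeR, which called 3.77% of all genes, Zfp42 was higher (adjusted p 0.0182) and Klf4 lower (adjusted p 0.0411). Fibroblast markers summed to 99.8 in NOD1 and 179 in NOD5, 8347 in NZB, 668 in v6.5 and 6771 in B6, with Lum and Dcn at 15.1 or below in every library. Trophoblast markers summed to 4949 in NOD1 and 3217 in NOD5, 873 in NZB, 562 in v6.5 and 654 in B6. Krt18 alone had 3418 in NOD1 and 1180 in NOD5, while Cdx2 was at 11.0 or below, highest in B6, and Elf5 at 3.03 or below. Markers of the 2-cell-like state summed to 581 in NOD1 and 747 in NOD5, and to 61.1 to 62.0 in the other 3 libraries. Against these sums, Zscan4c, Zscan4f and Tdpoz1 were lower in both NOD libraries than in NZB, v6.5 and B6, with Zscan4c at 0 in NOD1, 1.99 in NOD5 and 12.4 in B6. Germline genes summed to 6882 in NOD1 and 4024 in NOD5, 1946 in NZB, 1741 in v6.5 and 1169.7 in B6, and primitive endoderm markers to 953 to 4392. Their part in the results below was not tested. In bulk RNA, fewer cells of a type and less RNA per cell cannot be told apart.

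On chromosome 4 the zinc finger genes fell into members low in NOD and NZB cells, members high there, and members with overlapping levels. The examples are the 5 of highest mean level, with others chosen after their values were seen. Gm13247 had 184 normalised reads in NOD1 and 419.7 in NOD5, 300.5 in NZB, 919 in v6.5 and 1427 in B6. Gm13242 had 263 normalised reads in NOD1 and 674 in NOD5, 327 in NZB, 816 in v6.5 and 1124 in B6. Both NOD libraries and NZB lay below v6.5 and B6 for both genes, and v6.5 lay below B6. Zfp534 showed the same order, with 169 normalised reads in NOD1 and 423 in NOD5, 263 in NZB, 748 in v6.5 and 1239 in B6. Gm13251, now named Zfp992, had 52.9 normalised reads in NOD1 and 98.6 in NOD5, 57.0 in NZB, 309 in v6.5 and 389 in B6. These levels were 4.72-fold (Gm13247), 2.40-fold (Gm13242), 4.18-fold (Zfp534) and 5.14-fold (Gm13251) lower in the mean of the NOD lines than in B6. Zfp933, which shares only 1.86% of its 50-base stretches with other genes, had 62.0 normalised reads in NOD1 and 139 in NOD5, 107 in NZB, 225 in v6.5 and 345 in B6. It lay below v6.5 and B6 in both NOD libraries and NZB, as the other 4 genes did. Where its reads were placed was not tested.

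The high group had 3 members. Gm13152 had 558 normalised reads in NOD1 and 1094 in NOD5, 741 in NZB, 344 in v6.5 and 226 in B6. Zfp600 had 265 normalised reads in NOD1 and 625 in NOD5, 368 in NZB, 245 in v6.5 and 135 in B6. Gm13212 had 34.8 normalised reads in NOD1 and 95.1 in NOD5, 69.4 in NZB, 29.6 in v6.5 and 23.4 in B6. In all 3 the NOD and NZB libraries lay above v6.5 and B6, and again v6.5 lay on the NOD side of B6. The gap between NOD1 and v6.5 was narrow in Zfp600 and in Gm13212, which had 23 reads in NOD1 and 22 in v6.5. In NOD against B6 none of the 3 passed in edgeR. The adjusted p was 0.072 for Gm13152, 0.146 for Zfp600 and 0.457 for Gm13212. The mean of the NOD lines was 3.66-fold, 3.30-fold and 2.78-fold the B6 level of Gm13152, Zfp600 and Gm13212. Zfp600 and Gm13242, 88.3% identical upstream in the C57BL/6 genome, lay on opposite sides. Their upstream sequences in the other strains were not seen. Other genes share 85.0% of the 50-base stretches of Zfp600 and 72.6% of those of Gm13242, so these levels are uncertain. Rex2, with the 150 bases of Zfp600, had 1 read in NOD1, 1 in NOD5 and 0 in NZB, v6.5 and B6, and 90.3% of its transcript stretches occur in other genes, so its own level is not known.

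The 3 members with the narrowest range were also among the most abundant. Gm13154 had 966 normalised reads in NOD1 and 2093 in NOD5, 1329 in NZB, 1600.5 in v6.5 and 1310.1 in B6. Gm13157 had 508 normalised reads in NOD1 and 1034 in NOD5, 601 in NZB, 659 in v6.5 and 483 in B6. 2610305D13Rik had 1052 normalised reads in NOD1 and 2278 in NOD5, 1729 in NZB, 2348 in v6.5 and 2513 in B6. Gm13154 and Gm13157 overlapped between the strains, and 2610305D13Rik lay lower in NOD and NZB, with NOD5 near v6.5, and was 1.51-fold lower in the mean of the NOD lines than in B6. Per kilobase of exon, 2610305D13Rik had the highest mean level of the cluster at 777 normalised reads, against a median of 161 and a lowest of 6.90, in Gm13051.

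**Figure D1:**
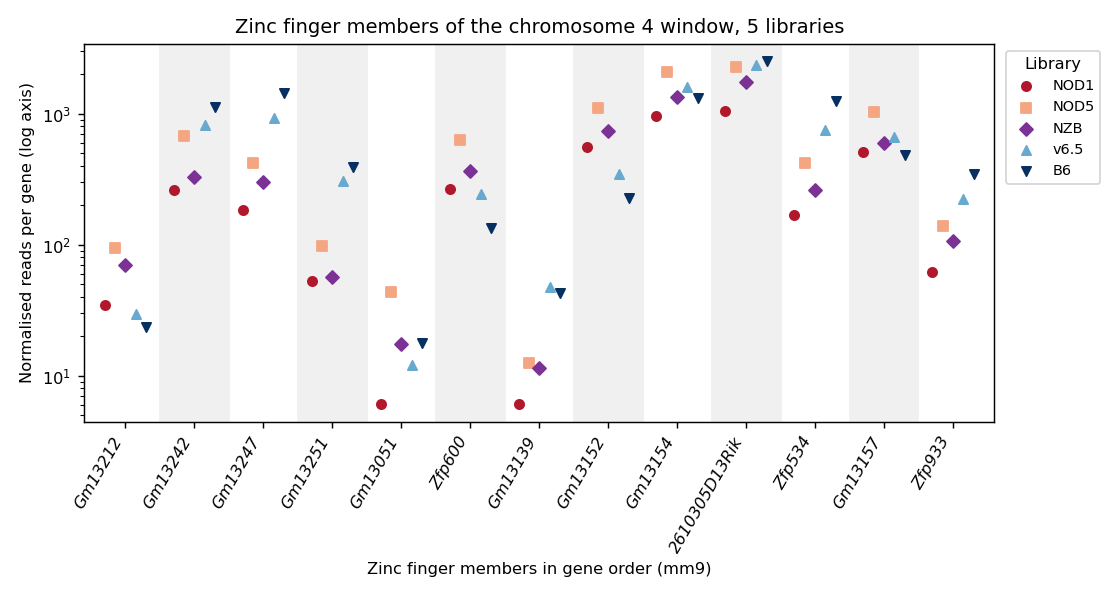
Normalised reads (log axis) of the 13 tested zinc finger members of the chromosome 4 window in gene order, 1 point per library. Gm13247, Gm13251 and Zfp534 are low in NOD1, NOD5 and NZB, Gm13152 and Zfp600 are high there, and NOD5 lies above NOD1 in every member. For Zfp600, NOD1 lies near v6.5.

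The make-up of the cluster did not depend on scaling. When each member's reads were taken as a share of all zinc finger reads of the chromosome 4 window (2731 reads in NOD1, 18138 in NOD5, 5715 in NZB, 6162 in v6.5 and 6740 in B6), NOD1, NOD5 and NZB had nearly the same make-up. Gm13247 took 4.47% (3.75% to 5.31%) in NOD1, 4.65% (4.35% to 4.96%) in NOD5, 5.07% (4.53% to 5.67%) in NZB, 11.1% (10.3% to 11.9%) in v6.5 and 15.4% (14.5% to 16.3%) in B6. Zfp534 took 4.10% (3.42% to 4.91%) in NOD1, 4.68% (4.38% to 5.0%) in NOD5, 4.44% (3.94% to 5.01%) in NZB, 9.01% (8.32% to 9.75%) in v6.5 and 13.4% (12.6% to 14.2%) in B6. The intervals of NOD1, NOD5 and NZB overlapped one another for both genes and stayed clear of v6.5 and B6. Gm13152 took 13.5% (12.3% to 14.8%) in NOD1, 12.1% (11.7% to 12.6%) in NOD5, 12.5% (11.7% to 13.4%) in NZB, 4.14% (3.67% to 4.66%) in v6.5 and 2.43% (2.09% to 2.83%) in B6. Zfp600 took 6.41% (5.55% to 7.39%) in NOD1, 6.92% (6.56% to 7.30%) in NOD5, 6.21% (5.61% to 6.87%) in NZB, 2.95% (2.56% to 3.41%) in v6.5 and 1.45% (1.19% to 1.77%) in B6. The order was turned round for this pair, again with intervals clear of v6.5 and B6. These are 95% Wilson intervals and cover counting error only.

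The difference in make-up between libraries was summed as the percentage of reads that would have to move to another member to make 2 libraries alike. On chromosome 4 it was 2.95 between NOD1 and NOD5, 5.50 between NOD1 and NZB, and 5.23 between NOD5 and NZB. It was 33.0 for NOD1 against B6, 31.5 for NOD5 against B6, 31.2 for NZB against B6, 12.5 for v6.5 against B6, and 18.9 to 21.8 for NOD1, NOD5 or NZB against v6.5. Of the 13 tested members, 6 had shares in NOD1, NOD5 and NZB below both others, 5 above and 2 overlapping. On chromosome 13 the NOD lines were less alike, at 17.1, and the values were 28.0 for NOD1 against B6, 20.7 for NOD5 against B6, 19.2 for NZB against B6 and 10.3 for v6.5 against B6. There, 7 of 27 members had shares below, 4 above and 16 overlapping. Shares of a cluster add up to a fixed whole, so members below go with others above. These counts have no counterpart over all genes. By level, 21.7% of all genes tested lay below and 23.8% above. The 14 and 29 genes behind the summed differences in make-up are not independent of one another.

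**Figure D2:**
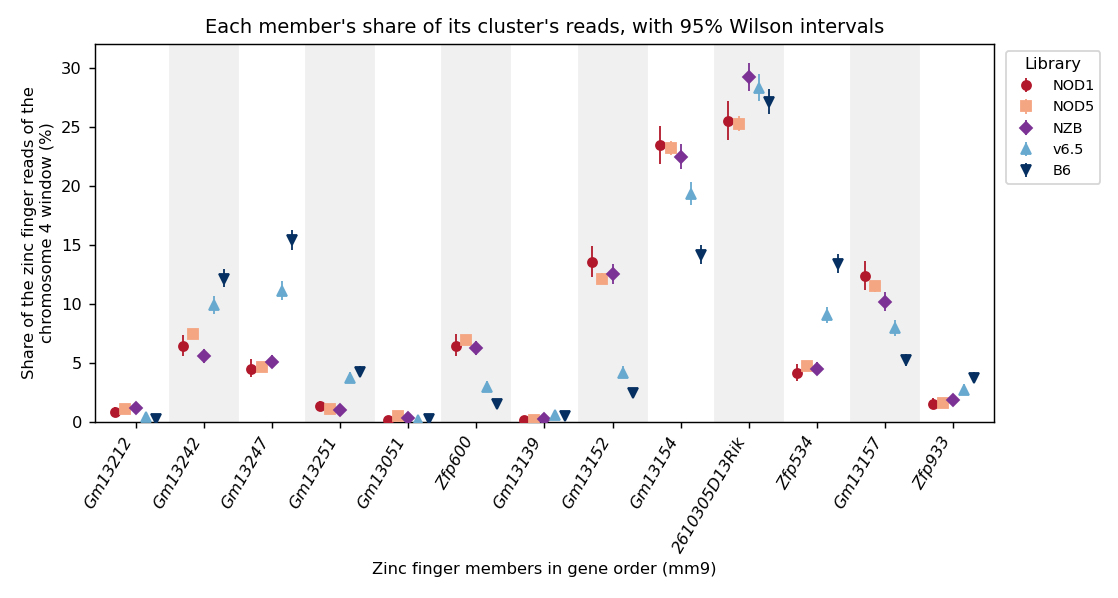
Share of each tested member in the zinc finger reads of the chromosome 4 window (percent, 5 libraries, bars 95% Wilson intervals). NOD1, NOD5 and NZB sit together for most members, with v6.5 between them and B6 for Gm13247, Zfp534, Gm13154 and Gm13157.

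The NOD lines differed from each other in the amount of the chromosome 4 cluster more than in its make-up. Summed over its zinc finger members the cluster had 9030 normalised reads in NOD5 and 4130 in NOD1, 5922 in NZB, 8301 in v6.5 and 9275 in B6. NOD5 over NOD1 was 2.19 for this sum, against 1.26 for the zinc finger genes on chromosome 13. All 13 tested zinc finger members on chromosome 4 were higher in NOD5 by more than 1.5-fold, where 21.4% of all genes tested were, and the 12 with a mean of at least 20 normalised reads lay between 1.86-fold and 2.73-fold. Their median log2 ratio was 1.16 with an interquartile range of 0.29, beside 0.06 and 0.97 over all 14280 genes tested. On chromosome 13, 9 of 27 zinc finger members passed 1.5-fold, with a median log2 ratio of 0.38, and 107 of 312 Zfp genes elsewhere passed, with a median of 0.34. None of the 13 on chromosome 4 was lower in NOD5 by more than 1.5-fold, and 2 of 27 on chromosome 13 were, beside 21.6% of all genes.

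The neighbours on chromosome 4 did not follow as one. Of the 15 other tested members, 4 were over 1.5-fold higher in NOD5 and 2 lower. One of the 4, Znf41-ps, was not counted as a zinc finger gene by the rule, which did not search for the symbol Znf, but is named as a zinc finger pseudogene, and NOD5 was 2.90-fold NOD1 for it. Clcn6, a chloride and proton exchanger of late endosomes, was nearly level between the NOD lines at 0.908-fold. Vps13d, a lipid transfer protein, was at 1.12-fold. There is no replicate of either NOD line, so this contrast has no test. NOD5 also had the larger library (21387796 reads, against 7713133 in NOD1), 1.95% of its reads in Rn45s against 14.3% in NOD1, and higher ES cell markers, which summed to 61525 normalised reads in NOD5 and 30418 in NOD1. Their part was not tested.

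**Figure D3:**
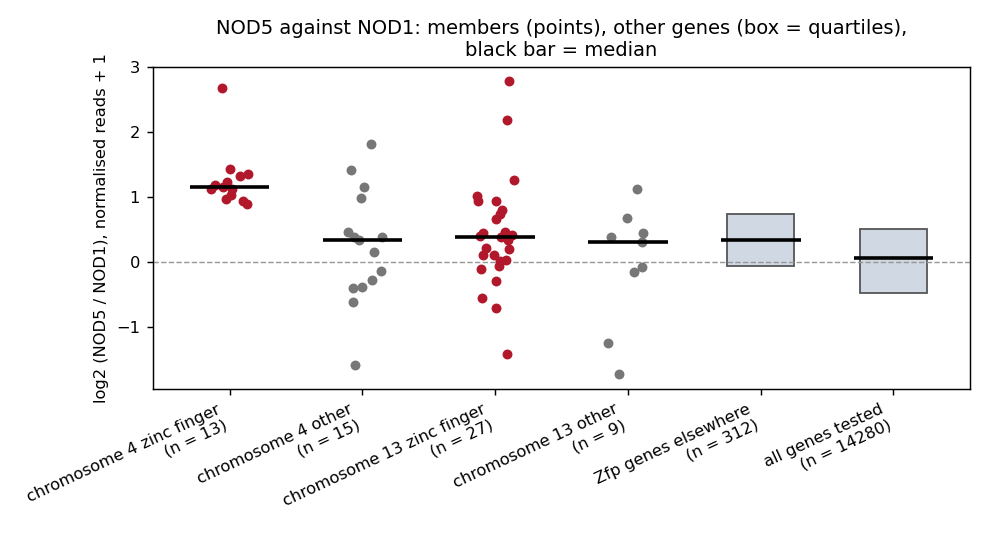
Log2 ratio of NOD5 to NOD1 (normalised reads + 1) for tested members of both windows (points, black bars medians) and for Zfp genes elsewhere and all genes tested (boxes, quartiles). The 13 zinc finger members on chromosome 4 lie between 0.88 and 2.67, around a median of 1.16.

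On chromosome 13 the zinc finger members that did not overlap between strains were lower in NOD and NZB cells. Of the 27 tested, 15 lay below both v6.5 and B6 in NOD1, NOD5 and NZB, and 0 lay above, beside 21.7% below and 23.8% above over all genes tested. These levels depend on the scaling. With the deposited values and no TMM factor, the median log2 fold change of the zinc finger members against B6 was -0.053 in NOD and 0.024 in NZB, in place of -0.77 and -0.86, while the median of all genes moved by 0.77 and 0.89. Zfp459, with only 3 fingers, had 43.9 normalised reads in NOD1 and 307 in NOD5, 772 in NZB, 868 in v6.5 and 1089.9 in B6. It was 6.99-fold higher in NOD5 than in NOD1, and NZB lay near v6.5. Zfp953 had 98.3 normalised reads in NOD1 and 106 in NOD5, 191 in NZB, 446 in v6.5 and 509 in B6. The NOD lines were close to each other and NZB lay between them and v6.5. Zfp493 had 36.3 normalised reads in NOD1 and 169 in NOD5, 63.2 in NZB, 191 in v6.5 and 381 in B6, and here NOD5 lay near v6.5. Zfp874a had 75.6 normalised reads in NOD1 and 72.7 in NOD5, 107 in NZB, 166 in v6.5 and 260.1 in B6. Its neighbour Zfp874b, 1 of the 3 members of narrowest range, had 159 normalised reads in NOD1 and 185 in NOD5, 176 in NZB, 195 in v6.5 and 175 in B6. So adjacent copies differed, 1 of them lower in NOD and NZB and the other level to within 1.23-fold.

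The other members of high mean level on chromosome 13 overlapped or nearly overlapped between strains. AA987161, now named Zfp729b, with 30 fingers, had 594 normalised reads in NOD1 and 821 in NOD5, 1126 in NZB, 967 in v6.5 and 798 in B6. A530054K11Rik, now Zfp729a, had 501 normalised reads in NOD1 and 465 in NOD5, 481 in NZB, 513 in v6.5 and 555 in B6. Zfp748 had 457 normalised reads in NOD1 and 374 in NOD5, 519 in NZB, 587 in v6.5 and 499.5 in B6. Zfp369 had 434 normalised reads in NOD1 and 295 in NOD5, 238 in NZB, 370.5 in v6.5 and 361 in B6. The NOD mean and B6 differed by at most 1.20-fold in these 4 genes. Per kilobase, the highest mean level on chromosome 13 was that of Zfp459 at 185 normalised reads, against a median of 48.5.

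Among genes with alike promoters on chromosome 13, Rsl1 had 22.7 normalised reads in NOD1 and 38.3 in NOD5, 13.5 in NZB, 37.7 in v6.5 and 56.4 in B6. Zfp456 had 25.7 normalised reads in NOD1 and 50.3 in NOD5, 33.2 in NZB, 74.1 in v6.5 and 82.6 in B6. Other genes share 65.3% of the 50-base stretches of Zfp456, so its level is uncertain. Zfp429 had 55.9 normalised reads in NOD1 and 73.2 in NOD5, 11.4 in NZB, 45.8 in v6.5 and 57.8 in B6. Zfp456 was lower in both NOD libraries and NZB than in v6.5 and B6, Rsl1 was low in NZB and NOD1 with NOD5 near v6.5, and Zfp429 was low in NZB alone, where it was 5.07-fold below B6. In limma the log2 fold change of Zfp429 in NOD against NZB was 2.39 ± 0.78 (SE), with an unadjusted p of 0.018 and an adjusted p of 0.51, so the difference did not pass the threshold.

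**Figure D4:**
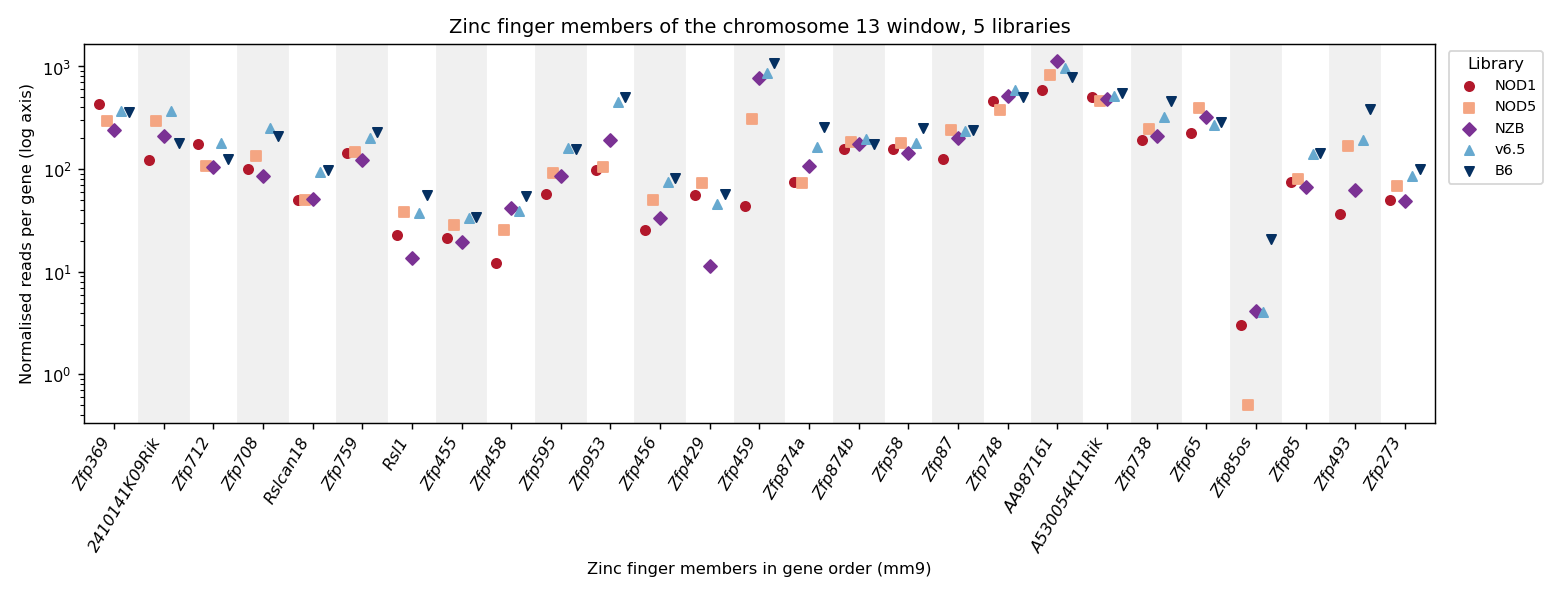
Normalised reads (log axis) of the 27 tested zinc finger members of the chromosome 13 window in gene order, 1 point per library. Zfp953, Zfp874a and Zfp708 are lower in NOD1, NOD5 and NZB than in v6.5 and B6, Zfp429 is low in NZB, and A530054K11Rik and Zfp874b are nearly level. Other genes share 100% of the 50-base stretches of Zfp708, so its level is uncertain.

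Each strain was compared with each other in limma with 1 mean per strain, where only the NOD pair gives an error (1 residual degree of freedom), and p-values were adjusted over all 14280 genes. In NOD against B6, 0 members passed an adjusted p of 0.05 on either chromosome, beside 0.462% of all genes tested. In the other comparisons 0 members passed as well, where 0% of all genes passed in NOD against v6.5, 0.077% in NOD against NZB, 0.007% in NZB against B6 and 0% in v6.5 against B6. At an unadjusted p under 0.05, limma had 7 members on chromosome 13 and 10 on chromosome 4 in NOD against B6 (17.1% of all genes), 3 and 6 in NOD against v6.5 (14.8%), 2 and 0 in NOD against NZB (7.24%), 4 and 6 in NZB against B6 (8.12%), and 0 and 0 in v6.5 against B6 (1.89%). That is 10 of 28 members on chromosome 4 in NOD against B6 and 7 of 36 on chromosome 13.

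Count models on the recovered reads called a few members. In NOD against B6, edgeR called 3 members on chromosome 13 and 3 on chromosome 4 (3.77% of all genes), and all 6 were lower in NOD. They were Zfp953 (log2 fold change -2.32, edgeR adjusted p 0.0179), Zfp459 (-2.60, 0.0448), Gm13247 (-2.23, 0.0188), Zfp534 (-2.05, 0.0368), Gm13251 (-2.34, 0.0381) and Nlrp4f (-1.85, 0.0373), a gene of the NLR family that is not a zinc finger gene. DESeq2 called 5 of these 6, all but Zfp459, where it called 4.94% of all genes. In NOD against v6.5, edgeR called Zfp953 alone (2.22% of all genes) and DESeq2 called the same gene (3.3%). In NOD against NZB, in NZB against B6, and between v6.5 and B6, neither called a member, where edgeR called 1.05%, 0.42% and 0.105% of all genes and DESeq2 1.49%, 1.1% and 0.175%. Limma gave Gm13247 a log2 fold change of -2.35 ± 0.57 (SE) and an adjusted p of 0.122 in NOD against B6, and Zfp953 -2.31 ± 0.51 (SE) and 0.105.

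The autoimmune-prone lines (NOD1, NOD5, NZB) were also set against B6 with v6.5, a comparison added after the levels had been seen. Its error mixed the spread between strains with that between the NOD lines. NOD1 and NOD5, of the same strain, were counted as separate replicates, and v6.5 is related by descent to B6. The adjusted p-values of this comparison thus treat related lines as independent. Limma called 1 member higher, Clcn6 (log2 fold change 1.66 ± 0.26 (SE), adjusted p 0.0264), beside 2.16% of 13421 genes. It called 3 lower, Gm13251 (-2.36 ± 0.40, adjusted p 0.0319), Zfp953 (-1.92 ± 0.37, adjusted p 0.041) and Gm13247 (-2.0 ± 0.39, adjusted p 0.041), beside 1.96%. With edgeR the same 4 members passed, 1 higher and 3 lower, beside 1.25% and 1.42% of all genes, and with DESeq2 16 passed, 3 higher and 13 lower, beside 8.42% and 7.61%. The 4 calls of limma were all lost when NOD1, NOD5, v6.5 or B6 was left out (0 members), and without NZB limma called 3 members on chromosome 13 and 5 on chromosome 4.

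Levels that did not overlap between NOD1, NOD5 and NZB on one side and v6.5 and B6 on the other were counted over all tested genes. On chromosome 13, 17 of 36 members lay below and 2 above, and on chromosome 4, 10 of 28 lay below and 8 above, beside 21.7% below and 23.8% above over all 14280 genes. Of Zfp genes elsewhere, 90 of 312 lay below and 52 above. Among genes that did not overlap, v6.5 lay between B6 and the autoimmune-prone lines in 17 of 19 members on chromosome 13 and 14 of 18 on chromosome 4, beside 52.8% of the 6500 such genes overall. This count takes any gap between v6.5 and B6, however small. Zfp455 had 25 reads in v6.5 and 25 in B6, and Zfp85 had 104 and 105, while Zfp493 had 142 and 277. The median log2 difference of the zinc finger members from B6 on chromosome 13 was -0.95 in NOD1, -0.55 in NOD5, -0.86 in NZB and -0.11 in v6.5. Over all genes tested it was 0.04, 0.08, 0.01 and 0.00 in the same lines, and over Zfp genes elsewhere -0.39 in NOD1, -0.04 in NOD5, -0.23 in NZB and -0.06 in v6.5. On chromosome 4, where members moved in both directions, the medians were -1.42 in NOD1, -0.14 in NOD5, -0.54 in NZB and -0.10 in v6.5.

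Among the neighbours, Clcn6 had 691 normalised reads in NOD1 and 628 in NOD5, 868 in NZB, 225 in v6.5 and 229.8 in B6. The gap between the strains was far wider than that between the NOD lines, and NZB was highest. Tnfrsf8, the receptor CD30, had 10.6 normalised reads in NOD1 and 21.9 in NOD5, 25.9 in NZB, 115 in v6.5 and 66.1 in B6. It lies on the outer side of all zinc finger genes of its window and was low in the NOD and NZB libraries, with v6.5 above B6. Nlrp4f on chromosome 13 had 222 normalised reads in NOD1 and 211 in NOD5, 293 in NZB, 455 in v6.5 and 780.3 in B6. Fv1, which restricts murine leukaemia virus in mice and arose from a retroviral gene, had 36.3 normalised reads in NOD1 and 29.9 in NOD5, 57.0 in NZB, 51.2 in v6.5 and 57.8 in B6 and overlapped between strains. Uqcrb, a subunit of respiratory complex III on chromosome 13, had 116 normalised reads in NOD1 and 144 in NOD5, 165 in NZB, 109 in v6.5 and 122 in B6, also overlapping.

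The partners of the KRAB domain were measured as a list of 26 genes chosen with earlier results of these data known. In NOD against B6, 0 of the 26 passed in limma or edgeR, beside 0.462% and 3.77% of all genes tested. At an unadjusted limma p under 0.05 there were 2 of the 26, beside 17.1% of all genes. Their median log2 fold change over the 26 was -0.58 beside 0.06 over all genes tested. Trim28 had 9189.6 normalised reads in NOD1 and 18616 in NOD5, 13764 in NZB, 10296 in v6.5 and 10388 in B6. Setdb1, the methyltransferase it recruits, had 1143 normalised reads in NOD1 and 1743 in NOD5, 1684 in NZB, 1658 in v6.5 and 1716 in B6. Trim28 overlapped between the strains and was higher in NOD5 than in NOD1, as the chromosome 4 zinc finger genes were, and Setdb1 lay lowest in NOD1.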

How the data were processed

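Poly-dT selected, strand-kept RNA of 5 ES cell lines was sequenced as 50-bp single-end reads. Per the processing notes and methods, the authors made base calls with CASAVA 1.8.2, aligned uniquely placed reads to mm9 with STAR (2.2.0c in the notes) and counted exons per gene with HOMER. In the deposited table the signal of a gene is its read count, which the authors rescaled to equal library totals. The authors' own fold changes and p-values from edgeR stand beside them and were not used.

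Whole reads were recovered by dividing each library's values by its step (100% of values below 3000 within 0.05 of a whole read). As the values are rescaled, limma-trend on log2(value / TMM factor + 1) was the main test in place of a count test, with edgeR's quasi-likelihood test and DESeq2 on recovered reads as alternatives (R 4.3.3, limma 3.58.1, edgeR 4.0.16, DESeq2 1.42.0). Genes were kept by filterByExpr, and Benjamini-Hochberg adjusted p had a threshold of 0.05. The NOD libraries are labelled NOD1 and NOD5, with 1 library each, so the p-values reflect only how far these libraries vary. Differences between lines and technical differences cannot be told apart in that spread. The limma test was also run on simulated data in which every library had a common spread, taken from the NOD pair. That run could not check whether the lone libraries vary like the NOD lines.

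Proteins, fingers and shared stretches came from GENCODE M21 transcripts (69 of 77 members matched by gene ID). Promoters came from RefSeq, GRCm38.p6, and were aligned with Biopython 1.88 (match 1, mismatch -1, gap opening -2, gap extension -0.5). Coordinates of the 2 builds were not mixed, but their gene models differ in places. Gm13247 lies on the minus strand in mm9 and on the plus strand in GRCm38.p6. Gm13212 has 1653 exon bases in mm9 and a translated protein of 799 residues. The gene model that was counted may thus not be the transcript or promoter described. Named by rule were members called in limma in 1 of the 5 strain comparisons (10 of widest range), members with at least 50 normalised reads in 1 library and at most 3 reads in another, and zinc finger members of highest mean (5) or narrowest range (3, mean of at least 50), with Trim28, Setdb1 and any partner called. The first 2 parts and the called partners gave no gene, and the grouped comparison, added later, is outside the rule. Other genes were chosen after their values were seen. The members, lists and tests were chosen with earlier results of these data known. Alternatives are given below. The 27 symbols that had turned into dates were not used.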

Additional observations from a re-analysis of the deposited data

How the results depend on the processing

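No paired analysis was possible because no line of 1 strain is matched with a line of another, and only NOD has 2. In NOD against B6, the members called on chromosomes 13 and 4 were 3 and 3 with edgeR, 2 and 3 with DESeq2, 1 and 0 with no filter, 0 and 3 with the deposited scaling without TMM, 2 and 3 with v6.5 joined to B6, and 0 and 1 with the NOD and B6 libraries alone, a fit added after seeing the data. NOD against v6.5 gave 1 on chromosome 13 with edgeR, 1 with DESeq2 and 2 with no filter. With no filter, limma called 1 and 2 in NOD against NZB, 2 on chromosome 4 in NZB against B6 and 1 on chromosome 13 in v6.5 against B6, and the deposited scaling gave 1 on chromosome 4 in NZB against B6. The grouped comparison (1 and 3 members) gave 5 and 11 with DESeq2, 2 and 8 with the deposited scaling, 0 and 0 with no filter, and between 0 and 3 and between 0 and 5 when 1 library was left out. Members beyond 2-fold in NOD against NZB on chromosome 4 numbered 1 with both NOD lines and 4 or 5 with 1 of them. The deposited scaling, which shifts the median of all genes by 0.77 (NOD), 0.89 (NZB) and 0.67 (v6.5) against B6 on the log2 scale, moved the summed zinc finger level on chromosome 13 to 0.028 in NOD, 0.45 in NZB and 0.60 in v6.5 against B6 (main values -0.71, -0.44 and -0.08) and the median fold change to -0.053, 0.024 and 0.56 (main values -0.77, -0.86 and -0.11), and moved the summed level on chromosome 4 in NZB to 0.25 (main value -0.65), all log2. Relative to the shift of all genes, these stayed below 0. In that scaling the log2 fold change in NOD against B6 changed sign for AA987161 (0.54), A530054K11Rik (0.53), Zfp748 (0.46), Zfp369 (0.72), Zfp874b (0.70) and 2610305D13Rik (0.032), and in the grouped comparison for AA987161 (0.35), A530054K11Rik (0.30), Zfp748 (0.17), Zfp369 (0.22), Zfp874b (0.35) and Gm13154 (0.39). Near 0, the sign also changed for Zfp369 with edgeR (0.012) and for Gm13154 with v6.5 joined to B6 (-0.026) or, grouped, with edgeR (0.0093). With 1 library left out, the grouped values ran from -0.33 to 0.16 for AA987161, from -0.35 to 0.23 for Gm13154 and from -0.030 to 0.51 for Gm13157. The cause of these changes was not tested. Strain comparisons other than NOD rest on lone libraries, and members with few reads, such as Gm13051, are limited by depth.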
